A study of Homo sapiens with 12 samples.

Results

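Doxorubicin changed the RNA of HCT116 cells that overexpressed NSE4A in both directions, with the genes of the p53 programme among the largest rises and those of sterol synthesis, the ribosome and very long genes among the falls. HCT116 is a human colorectal cancer cell line. The cells, called NSE4 cells here, had been transfected with a plasmid for flag-tagged NSE4A, divided after 24 h, and kept for a further 24 h with 1000 nM doxorubicin or with PBS, the drug-free control. Each of these 2 groups had 2 libraries, in a series made to ask how subunits of the SMC5/6 complex bear on growth and on apoptosis under the drug. The members are the loci with at least 1 FPKM (fragments per kilobase of transcript, scaled to the size of the library) in at least 2 of these 4 libraries, which were 14387 of the 57908 loci in the deposited table, or 24.8%. The same series held GFP cells, described as carrying the control vector, and SMC5 cells, which carried flag-tagged SMC5. Each had the same treatments and 2 columns a group in that table. All groups were transient transfections of 1 cell line whose genotype is labelled wild type, so the endogenous NSMCE4A gene was present throughout, and the labels do not say what share of cells took up the plasmid.

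Doxorubicin, an anthracycline used in chemotherapy, holds topoisomerase II in the act of cutting DNA and so leaves double-strand breaks. The breaks activate the kinases ATM and ATR, which stabilise the transcription factor p53, and p53 in turn induces genes for cell cycle arrest, repair, metabolism and apoptosis. The NSMCE4A gene encodes NSE4A, a kleisin that bridges the heads of the SMC5/6 complex, a ring related to cohesin and condensin that acts in recombination and at stalled replication forks.

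The plasmid was visible in the data. NSMCE4A read 4069 and 4186 FPKM in the PBS libraries and 5283 and 6287 with doxorubicin, against 68.7 to 89.4 in the 4 GFP libraries and 32.6 to 43.1 in the 4 SMC5 columns. Its level in NSE4 cells was thus far above every library without this plasmid, and it was 0.48 higher with doxorubicin on the log2(FPKM + 1) scale (standard error, SE, 0.14, adjusted p = 0.031), a call that was lost when 3 of the 4 NSE4 libraries were left out in turn. Estimated depth lay between 13.63 M and 19.24 M fragments over the 12 columns, and 28.9 to 46.2% of summed FPKM came from the mitochondrial genome. For SMC5 cells with doxorubicin 7 loci were above 0 in only 1 of the 2 columns, against 4216 to 5291 in other groups. These 2 columns therefore entered as their mean, as 1 sample. Values of some genes still differed between them, such as PGF (68.1 and 86.2 FPKM). Of 11 epithelial markers, 9 or 10 reached 1 FPKM in each NSE4 library, with a summed level of 3912 to 4584 FPKM. The 9 mesenchymal markers summed to 27.3 to 36.3 FPKM, with COL1A2 and DCN at 0 in 3 of the 4 libraries. The 10 hepatocyte, neural and blood markers summed to 230 to 313 FPKM, of which TUBB3, a tubulin that many carcinoma lines also express, gave 227 to 309, while TTR and HBB were at 0 in all 4.

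Of the members, 2503 rose and 2197 fell (limma on log2(FPKM + 1), Benjamini-Hochberg adjusted p under 0.05 over all 15833 loci tested). That is 32.7% of the members, beside 30.2% of all loci tested. Of the members 17.4% rose and 15.3% fell, beside 16.3% and 13.9% of all loci tested. The counts of rises and falls in each gene list below are to be read beside these shares. The shares also went with level. Of 5 classes by PBS level, the lowest had 22.9% that rose and 3.34% that fell (median change 0.24). The highest, with a median of 66.9 FPKM, had 12.3% and 29.2% (median change -0.14). Lists of highly expressed genes, such as the ribosomal proteins, are to be read beside the shares of the highest class. The PBS level also enters the change itself, and its part in this trend was not tested. Falls outnumbered rises under quantile normalization (2542 rose and 2659 fell), under upper-quartile scaling (2518 and 2688), without the first PBS library (1429 and 1599) and without the second drug library (1322 and 1541). An unadjusted p under 0.05 was found for 6429 members, a count that includes those that passed the adjusted threshold. Among the calls, 774 rises and 439 falls were at least 2-fold on this scale, 99 and 25 were at least 4-fold, and 9 and 5 were at least 8-fold. The drug and PBS libraries did not overlap for 9782 members, among them every member called, beside 65.6% of all loci tested. As in any bulk RNA measurement, fewer cells of a type and less RNA per cell cannot be told apart here. The median log2 change over all members was 0.03 and the median size of a change was 0.34, with a median SE of 0.159. Most members, 12535, were at 1 FPKM or more in all 4 libraries, and 2076 of these rose and 2040 fell. Another 1001 reached 1 FPKM in both drug libraries but not in both PBS libraries, and 538 in both PBS but not in both drug libraries. Their direction thus follows in part from how they qualified: 427 of the former rose and 157 of the latter fell. At the edge of the rule, 287 members had a second-highest value under 1.1 FPKM, and 339 loci just outside it had one between 0.9 and 1. The count of loci called, 4780, was 3064 without the first PBS library, 2974 without the first drug library and 2920 without the second drug library.

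**Figure D1:**
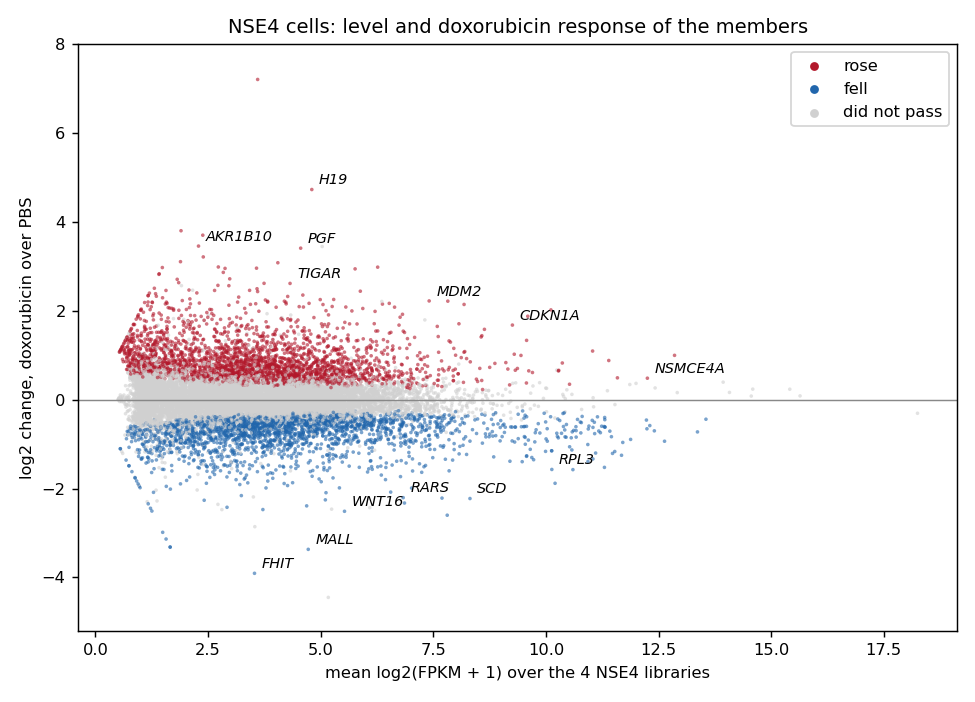
Mean log2(FPKM + 1) over the 4 NSE4 libraries (x axis) against the log2 change with doxorubicin (y axis) for the 14387 members, in red where they rose, blue where they fell and grey where they did not pass. The 2503 rises and 2197 falls lie at low and high levels, but in unequal shares. Of the members with the lowest PBS levels 22.9% rose and 3.34% fell, and of those with the highest 12.3% rose and 29.2% fell. H19 and MALL stand at the edges.

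The 12 largest rises among protein-coding genes whose locus carries that 1 name, used once in the table, are grouped here by known role, a grouping made after their values were seen. AKR1B10, an aldo-keto reductase that can reduce the carbonyl group of anthracyclines, read 0.372 and 0.586 FPKM with PBS and 16.1 and 14.3 with doxorubicin, a log2 change of 3.45 (SE 0.16, adjusted p = 3.18e-05). PGF, placental growth factor, read 5.43 and 7.11 and then 71.1 and 80.4, a change of 3.41 (SE 0.17, adjusted p = 3.43e-05). Both genes went from low to moderate levels with wide gaps between the groups. CDIP1, a p53 target that promotes cell death, read 4.18 and 5.27 and then 43.0 and 51.6, a change of 3.08 (SE 0.18). PRODH, the mitochondrial proline dehydrogenase and a classic p53 target, read 3.29 and 3.27 and then 29.3 and 35.4, a change of 2.96 (SE 0.19). AQP3, a channel for water and glycerol, read 20.1 and 17.2 and then 140 and 160, a change of 2.94 (SE 0.16). Genes known from stratified epithelium were S100A2, a calcium-binding protein (20.6 and 33.8 to 218 and 212), LGALS7B, a keratinocyte galectin (1.40 and 1.91 to 22.2 and 17.0), KRT80, a keratin (1.46 and 1.86 to 16.4 and 20.3), and the late cornified envelope genes LCE1F (0 in both PBS libraries, 6.68 and 7.0 with the drug) and LCE1C (0 in both, 5.13 and 7.26). The log2 changes of S100A2, LGALS7B and KRT80 were 2.98, 2.95 and 2.86, and no fold is given for the LCE1 genes, which were listed at 0 with PBS. The hormone gene GAST (1.19 and 1.54 to 16.8 and 18.5) and the galanin receptor gene GALR2 (0.236 and 0.291 to 8.54 and 11.3) completed the 12. SORCS2, a sorting receptor whose name is used by 3 loci and which the rule therefore left out, read 0.784 and 0.674 and then 14.3 and 15.7 at 1 of them (3.21, SE 0.21). All 12 calls held with each of the 4 libraries left out. AKR1B10, GALR2, LCE1F and LCE1C were under 1 FPKM in both PBS libraries and became members only through the drug libraries. Their direction thus follows in part from how they qualified. These genes also rose in the other cells, where the changes of the 10 genes with a PBS level above 0 lay between 2.64 and 3.48 in GFP cells and between 2.71 and 3.54 in SMC5 cells.

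The 12 largest falls by the same rule included genes of growth factor signalling, immediate early genes (described with their list) and metabolic genes. MALL, a membrane raft protein, read 76.9 and 91.5 FPKM with PBS and 7.38 and 7.07 with doxorubicin, a log2 change of -3.37 (SE 0.12, adjusted p = 1.67e-05). WNT16, a secreted WNT ligand, read 110 and 108 and then 16.4 and 20.4, a change of -2.51 (SE 0.12). FGFBP1, which releases fibroblast growth factors from the matrix, read 16.4 and 16.7 and then 2.14 and 2.41, a change of -2.42 (SE 0.14). In all 3 the gap between the groups was several times the spread between libraries, though groups without overlap were a condition of the rule. NR2F1, an orphan nuclear receptor, fell from 53.4 and 63.2 to 9.42 and 11.2, CPLX1, a synaptic vesicle protein, from 11.0 and 10.4 to 1.1 and 1.82, and CLYBL, a mitochondrial citramalyl-CoA lyase, from 20.4 and 17.6 to 3.80 and 3.16. RPL22L1, a paralogue of a ribosomal protein, fell from 419 and 472 to 92.0 and 98.1, a change of -2.21 (SE 0.10). FHIT, which spans a common fragile site, had the largest fitted fall (-3.91, SE 1.18, adjusted p = 0.0381) but uneven libraries, with 56.2 and 34.0 FPKM in PBS and 6.02 and 0.268 with the drug, and PDSS2, a coenzyme Q synthesis gene, was uneven in PBS (51.2 and 17.4, then 5.14 and 4.07). The calls of FHIT and PDSS2 were each lost with 3 of the 4 libraries left out in turn, with adjusted p up to 0.219 and 0.181.

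RARS, which encodes the cytosolic arginyl-tRNA synthetase, had the smallest changes in the other cells among the 12 largest falls. In NSE4 cells it read 282 and 210 FPKM in the PBS libraries and 52.7 and 51.3 with doxorubicin, a log2 change of -2.20 (SE 0.40, adjusted p = 0.00457). The GFP libraries read 56.6 and 60.1 with PBS and 55.9 and 53.1 with the drug, and the SMC5 libraries read 166 and 57.2 and then 75.3 and 74.2. The drug-treated NSE4 libraries therefore stood at the level of GFP cells, and the PBS libraries of NSE4 cells were the high ones, together with 1 PBS library of SMC5 cells. The difference of response from GFP cells was -2.11 (SE 0.56) and did not pass (adjusted p = 1.0).

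**Figure D2:**
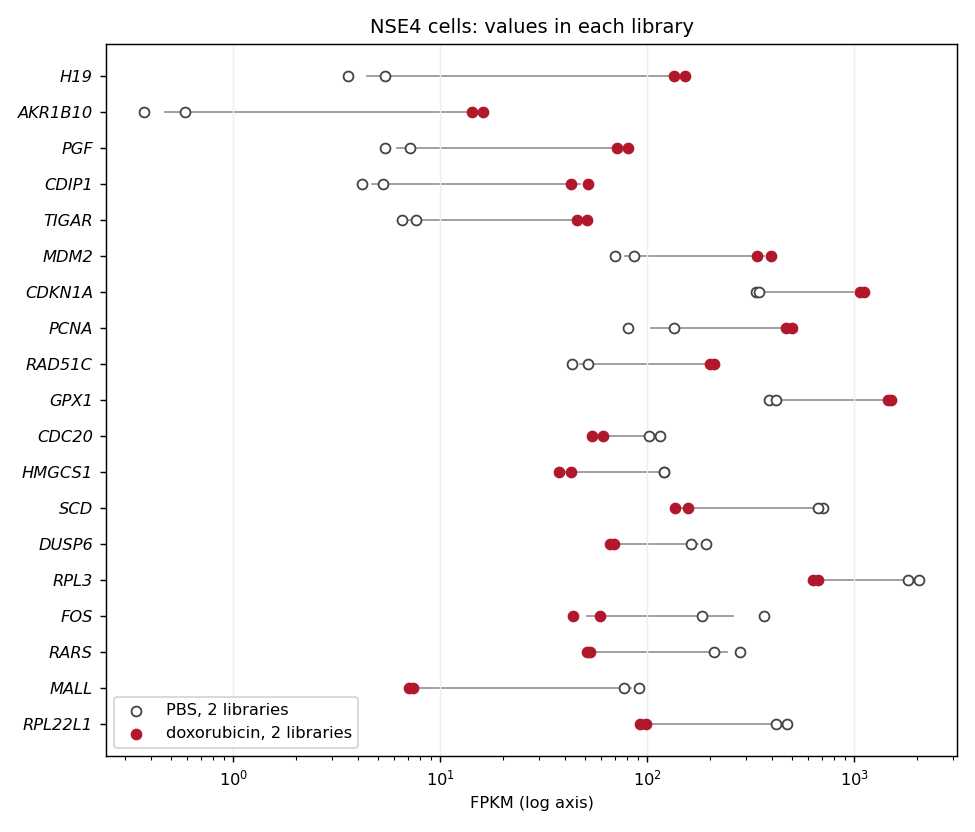
FPKM (log axis) of 19 genes in each of the 4 NSE4 libraries, with open circles for PBS, filled circles for doxorubicin and a line between the geometric means. In each gene the pair of drug libraries lies wholly to one side of the pair of PBS libraries, from H19 (3.58 and 5.43 to 152 and 134) to RPL22L1 (419 and 472 to 92.0 and 98.1). The same holds for every member called.

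Many p53-induced genes rose. Of 7 members of the list of p53 feedback regulators 3 rose and 1 fell. MDM2, the ubiquitin ligase that degrades p53, read 69.7 and 86.6 and then 394 and 339 (log2 change 2.22, SE 0.17, adjusted p = 0.000109). TP53INP1, a stress protein that activates p53, went from 18.6 and 14.4 to 71.0 and 66.0, and PPM1D, the phosphatase that switches off the damage signal, from 14.4 and 20.0 to 56.0 and 59.1. All 3 kept their calls with each library left out, whereas CCNG1, a cyclin that recruits a phosphatase to MDM2, fell from 61.3 and 61.5 to 46.8 and 38.5 (-0.52, SE 0.14), a call lost with 3 of the 4 libraries left out.

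Arrest and metabolic targets followed. Of 11 members of the p53-induced arrest and stress list, 8 rose and none fell (median 1.03). CDKN1A, which encodes the cyclin-dependent kinase inhibitor p21, read 337 and 345 FPKM and then 1067 and 1118 (1.68, SE 0.13, adjusted p = 9.62e-05). BTG2, an antiproliferative gene, went from 23.4 and 26.5 to 101 and 103, PLK3, a stress kinase, from 59.4 and 53.1 to 192 and 220, and GDF15, a secreted stress cytokine, from 438 and 687 to 2186 and 2263. Of 10 metabolic and antioxidant targets 9 rose and none fell, with the highest median of the lists (1.54). TIGAR, which lowers fructose-2,6-bisphosphate, read 6.55 and 7.63 and then 51.3 and 45.7 (2.61, SE 0.11, adjusted p = 2.59e-05). SESN1, a sestrin that restrains mTORC1, went from 6.88 and 6.81 to 32.0 and 32.3, RRM2B, the p53-inducible ribonucleotide reductase subunit, from 32.0 and 26.4 to 134 and 114, and GPX1, a glutathione peroxidase, from 388 and 419 to 1459 and 1506. In these 4 genes the libraries of a group differed little beside the gap between the groups. Without the second PBS library 6 of the metabolic targets rose.

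Some genes rose in each list of pro-apoptotic genes. Of 9 death receptors and adaptors 5 rose and none fell (median 0.67). The TRAIL receptor gene TNFRSF10B, which encodes DR5, read 64.8 and 71.1 FPKM and then 186 and 204 (1.51, SE 0.13, adjusted p = 0.000153), TNFRSF10A, which encodes DR4, went from 16.1 and 19.7 to 47.6 and 52.3, and FAS from 5.56 and 7.65 to 26.0 and 22.8. The decoy receptor gene TNFRSF10C moved most, from 3.86 and 4.27 to 26.2 and 28.9 (2.49, SE 0.14). Of 10 genes for BAX, BAK and BH3-only proteins 4 rose and none fell. PMAIP1, which encodes NOXA, read 53.2 and 54.5 and then 155 and 152 (1.5, SE 0.08, adjusted p = 4.86e-05), and BIK, BMF and BAK1 rose by 0.64, 0.79 and 0.46. In this family 2 genes rose without the second drug library. BAX (96.5 and 118, then 135 and 169, adjusted p = 0.0506) and BBC3, which encodes PUMA (32.4 and 38.8, then 48.0 and 53.8, adjusted p = 0.0652), were higher in both drug libraries but did not pass. Of 8 caspase and apoptosome genes 5 rose, led by APAF1, the apoptosome scaffold (6.5 and 7.1 to 19.8 and 19.8, a change of 1.42, SE 0.09), and 2 to 5 rose with a library left out, with 2 without the first PBS or the second drug library. Among 9 p53 death effectors outside the BCL2 family 6 rose, with PIDD1, the core of the PIDDosome, at 12.1 and 18.1 and then 61.6 and 76.3 (2.14, SE 0.21), and PERP, a desmosome protein, fell (103 and 90.5 to 71.7 and 66.5), a call lost without the second drug or the first PBS library. Of 6 anti-apoptotic genes none rose and 2 fell, BIRC3, an inhibitor of apoptosis gene (9.78 and 5.53 to 2.01 and 2.16), and BCL2L1, which encodes BCL-XL (75.1 and 81.8 to 52.4 and 56.4).

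**Figure D3:**
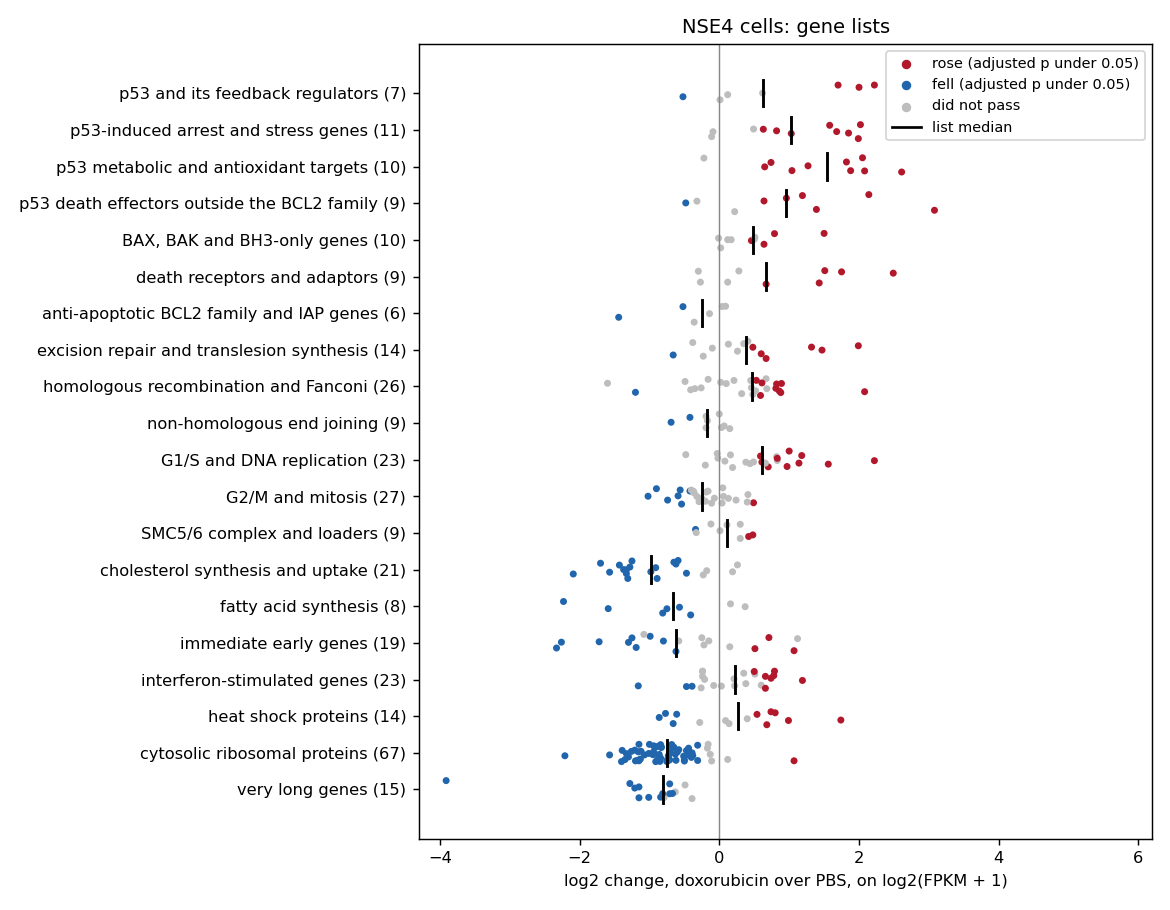
Log2 change with doxorubicin of each member of 20 gene lists (number of members in brackets), with red for rises, blue for falls, grey for members that did not pass and a bar at the list median. The 4 p53 lists have medians of 0.62 to 1.54, and cholesterol synthesis and uptake, ribosomal proteins and very long genes have medians of -0.98, -0.75 and -0.81.

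Most DNA repair genes did not pass, which was also so of the members as a whole (32.7% called). Of 14 excision repair and translesion genes 6 rose and 1 fell. The damage sensors DDB2 (33.5 and 39.0 FPKM to 143 and 149, a change of 1.99, SE 0.12) and XPC (16.2 and 15.9 to 39.3 and 44.0) and the translesion polymerase POLH (7.67 and 9.17 to 24.3 and 25.9) rose with every library left out, while ERCC2, a TFIIH helicase, fell from 26.2 and 26.0 to 13.7 and 19.1, a call that 3 of the 4 omissions ended. Rises in this list numbered 3 without the first PBS or the second drug library. Of 26 homologous recombination and Fanconi genes 9 rose and 1 fell. RAD51C, a recombination gene, stood apart with 43.5 and 51.8 in PBS and 209 and 200 with the drug (2.08, SE 0.10, adjusted p = 3.43e-05). FANCE, of the Fanconi core complex, rose by 0.82 (SE 0.14) and BRIP1, a helicase that binds BRCA1, by 0.89 (SE 0.21). NBN, which encodes the NBS1 subunit of the MRN complex, fell from 11.5 and 12.2 to 3.84 and 5.46 (-1.20, SE 0.15). The rises in this list were 3, 3 and 2 without the first drug, second drug and first PBS library, and 11 without the second PBS library, and falls numbered 3 without the first PBS library. Of 9 end-joining genes none rose and 2 fell, XRCC4, a ligase cofactor (15.3 and 17.4 to 10.2 and 9.26), and XRCC6, which encodes Ku70 (213 and 258 to 169 and 183), whose call 3 of the 4 omissions ended. Of 11 checkpoint kinase and CDC25 genes 5 rose, led by CLSPN, the CHK1 adaptor (2.85 and 4.59 to 9.19 and 9.64), and CHEK2 fell (18.7 and 21.5 to 14.4 and 14.6), a call lost in 3 of the 4 omissions. Of these, 3, 1 and 2 rose without the first drug, the second drug and the first PBS library.

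Among cell cycle genes most did not pass, which was also so of the members as a whole (32.7% called). Of 23 G1/S and replication genes 10 rose and none fell (median 0.61). PCNA, the replication clamp and a p53 target, read 80.6 and 134 FPKM and then 503 and 470 (2.22, SE 0.20, adjusted p = 0.000208), CCNE2, which encodes cyclin E2, went from 2.85 and 6.21 to 15.6 and 13.5, RRM1, the large ribonucleotide reductase subunit, from 21.9 and 34.1 to 61.9 and 60.7, and MCM10, a replication initiation factor, from 2.89 and 4.67 to 9.39 and 9.98. The PBS libraries were themselves unequal here: all 23 genes read lower in the first PBS library than in the second, with a median log2 ratio of -0.69, against -0.08 over all members, and the part of this difference in the rises was not tested. Only 5 rose without the first PBS library (median 0.2) and without either drug library, and 15 rose without the second PBS library. Of 27 G2/M and mitosis genes 7 fell and 1 rose (median -0.25), and that rise was lost without the first PBS or either drug library. KIF20A, a mitotic kinesin, read 21.2 and 23.8 and then 10.1 and 11.0 (-1.02, SE 0.11, adjusted p = 0.000456), CDC20, the activator of the anaphase-promoting complex, 102 and 115 and then 54.0 and 61.3 (-0.90, SE 0.11), BUB1, a spindle checkpoint kinase, 21.3 and 23 and then 15.4 and 14.4, and CKS2, a CDK1-binding protein, 270 and 270 and then 186 and 179. The PBS and drug libraries were apart in each of the 4, as they were in every member called. In the list of cyclin D, CDK4/6, RB and E2F genes 8 of 19 rose and 3 fell. E2F7, a repressive E2F, went from 2.22 and 4.16 to 19.1 and 19.1 (2.31, SE 0.20), CCND3, which encodes cyclin D3, from 25.6 and 27.9 to 65.4 and 71.7, and CDKN2B, which encodes p15, from 6.5 and 6.09 to 15.3 and 19.1, whereas CDKN2A fell from 43.8 and 65.6 to 17.7 and 21.0 (-1.43, SE 0.19). Without either drug library 5 of these 19 rose, and without the first drug library 1 fell.

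Promoter sequence from RefSeq (GRCh38.p14, the 250 bases before each start site, both strands) gave a description of these lists. The letters TTTGAA, known as the cell cycle homology region or CHR, were in 12 of 22 matched G2/M promoters (54.5%), and CCAAT, the NF-Y box, in 19 (86.4%), against 13.6% and 33.0% of all 27305 promoters. E2F letters (TTTCCCGC or TTTGGCGC, neither of which holds another of these motifs) were in 8 of 19 matched G1/S promoters (42.1%) and in 1.96% of all. A perfect p53 half-site was in 34 of 373 matched members that rose at least 2-fold (9.12%), in 18 of 253 that fell at least 2-fold (7.11%), in 4.73% of matched members and in 5.53% of all promoters. Such a half-site was in 0 of 5 matched p53 feedback regulators, 1 of 8 arrest and stress genes and 1 of 9 metabolic targets. It was in 2 of 9 death effectors outside the BCL2 family and in 8 of 54 cytosolic ribosomal protein genes (14.8%). A match is only a match of letters, and no test was made of these shares. The stretches below show a p53 half-site in 3 genes that rose, an E2F site in PCNA, and CHR and CCAAT letters in 3 mitotic genes that fell, with the matches in capitals.
AEN, chr15:88621280-88621339, plus strand: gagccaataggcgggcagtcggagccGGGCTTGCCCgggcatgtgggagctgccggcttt
GPX1, chr3:49358496-49358555, minus strand: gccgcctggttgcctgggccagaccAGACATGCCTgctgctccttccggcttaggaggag
PLK2, chr5:58460184-58460243, minus strand: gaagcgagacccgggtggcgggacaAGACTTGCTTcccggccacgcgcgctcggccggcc
PCNA, chr20:5126648-5126707, minus strand: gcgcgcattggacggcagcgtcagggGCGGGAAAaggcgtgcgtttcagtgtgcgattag
CDC20, chr1:43358869-43358968, plus strand: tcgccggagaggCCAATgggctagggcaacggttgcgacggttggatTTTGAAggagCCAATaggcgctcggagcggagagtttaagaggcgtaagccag
CKS2, chr9:89311095-89311194, plus strand: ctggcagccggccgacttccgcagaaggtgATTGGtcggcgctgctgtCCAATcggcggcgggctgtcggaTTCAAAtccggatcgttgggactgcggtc
KIF18A, chr11:28108157-28108256, minus strand: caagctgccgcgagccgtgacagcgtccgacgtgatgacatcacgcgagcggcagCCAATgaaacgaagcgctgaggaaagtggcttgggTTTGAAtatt
AEN, an exonuclease that p53 induces, read 19.4 and 27.4 FPKM with PBS and 62.5 and 61.5 with doxorubicin, PLK2, a stress kinase, 45.6 and 68.5 and then 85.5 and 88.5 (a call lost with 3 of the 4 omissions), and KIF18A, a kinesin that positions chromosomes, 8.47 and 9.54 and then 4.79 and 5.17.

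Of 9 members of the list for the SMC5/6 complex 2 rose and 1 fell. Apart from NSMCE4A, NSMCE3, which binds NSE4A (5.93 and 5.39 FPKM to 8.07 and 7.79, a change of 0.42, SE 0.12, adjusted p = 0.0272), rose, and NSMCE1, a RING subunit (49.5 and 48.1 to 38.4 and 38.2, -0.34, SE 0.11, adjusted p = 0.0434), fell, and neither call survived the omission of any 1 of the 4 libraries. SMC6 read 9.94 and 9.64 and then 8.99 and 10.8, and SMC5 was too uneven for a direction (10.3 and 19, then 8.63 and 34.4). Of 21 cohesin and condensin genes 4 rose and 3 fell. Over all loci tested 16.3% rose and 13.9% fell, shares to set beside the counts of both these lists. NCAPD2, a condensin I subunit, read 46.7 and 61.8 and then 24.3 and 28.6 (-1.0, SE 0.16), and NCAPH2, a condensin II subunit, 20.9 and 32.8 and then 52.4 and 63.0 (1.1, SE 0.21). The rises in this list numbered 2 without the first PBS library or either drug library. TOP2B, 1 of the topoisomerase II genes that doxorubicin poisons, fell from 22.1 and 25.4 to 12.3 and 12.6 (-0.88, SE 0.13, adjusted p = 0.00164), while TOP2A read 25.8 and 30.6 and then 26.3 and 26.8 and did not pass. Among 15 anthracycline reductases and efflux transporters 5 rose and 2 fell. Besides AKR1B10 these were the multidrug resistance proteins ABCC5 (7.13 and 9.67 to 16.7 and 16.9) and ABCC2 (8.56 and 10.4 to 16.1 and 16.8), while the reductase gene AKR7A2 fell (50.6 and 51.6 to 31.4 and 30.7), and 1 of the list fell without the second PBS or the second drug library.

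Of 21 members of the cholesterol list 17 fell and none rose (median -0.98), and 15 to 17 fell with any library left out. The fall ran along the pathway. HMGCS1, the first committed step, read 121 and 120 FPKM and then 37.4 and 42.9 (-1.57, SE 0.10, adjusted p = 5.99e-05), IDI1, the isopentenyl isomerase, 111 and 110 and then 40.8 and 43.2 (-1.37, SE 0.09), SQLE, the squalene epoxidase, 51.8 and 55.5 and then 21.2 and 22.8, and DHCR7, the last reductase, 116 and 136 and then 47.9 and 52.3. In all 4 the drug libraries lay far below the PBS libraries. The regulators moved the same way. INSIG1, which retains SREBP in the endoplasmic reticulum, fell from 155 and 137 to 38.1 and 51.3 (-1.7, SE 0.17), and SREBF2, which encodes SREBP2, from 90.0 and 93.8 to 42.9 and 54.6. Of 8 fatty acid synthesis genes 6 fell and none rose. SCD, the stearoyl-CoA desaturase, read 704 and 671 and then 136 and 157 (-2.23, SE 0.12, adjusted p = 3.58e-05), ACSS2, a cytosolic acetyl-CoA synthetase, 61.5 and 59.8 and then 18 and 21, and ACACA, the acetyl-CoA carboxylase, 40.1 and 42.9 and then 25.5 and 23.1.

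In the cholesterol list CCAAT letters were in 12 of 14 matched promoters (85.7%), against 33.0% of all, and the sterol regulatory letters TCACNCCAC in 1 (7.14%), against 0.875%. The stretches below show 3 of the genes that fell and the sterol letters upstream of SREBF2, with matches in capitals.
HMGCS1, chr5:43313481-43313540, minus strand: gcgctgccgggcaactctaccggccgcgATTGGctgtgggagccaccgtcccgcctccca
DHCR7, chr11:71448410-71448469, minus strand: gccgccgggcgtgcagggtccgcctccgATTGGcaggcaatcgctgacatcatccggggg
MSMO1, chr4:165327607-165327666, plus strand: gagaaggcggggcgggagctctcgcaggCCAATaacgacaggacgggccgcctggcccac
SREBF2, chr22:41832946-41833005, plus strand: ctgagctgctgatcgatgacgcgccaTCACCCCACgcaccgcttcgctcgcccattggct
MSMO1, a sterol demethylase, read 157 and 130 FPKM with PBS and 51.2 and 54.0 with doxorubicin.

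Of 19 immediate early genes 9 fell and 3 rose. FOS read 183 and 367 FPKM and then 43.9 and 59.0 (-2.33, SE 0.38, adjusted p = 0.00281), and the Krüppel-like factor genes KLF2 (57.8 and 95.0 to 12.3 and 17.7), KLF4 (63.3 and 58.7 to 22.9 and 27.3) and KLF6 (67.2 and 79.9 to 25.3 and 33.7) fell by 2.26, 1.25 and 1.3 on the log2 scale. IER5, a stress-induced member, rose from 30.9 and 30.9 to 61.9 and 70.1. The first PBS library was lower than the second in 18 of the 19 (median log2 ratio -0.56), and 12 fell without it and 6 without the first drug library. Of 15 ERK outputs and EGFR ligands 6 fell and 3 rose. The feedback phosphatase gene DUSP6 fell from 162 and 192 to 66.1 and 69.2 (-1.37, SE 0.10, adjusted p = 9.37e-05) and PHLDA1, which curbs receptor signalling, from 122 and 112 to 39.4 and 41.7, while the ligand gene HBEGF rose from 6.58 and 8.87 to 20.8 and 23.8 and the receptor gene EPHA2 from 94.0 and 109 to 197 and 226.

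Innate immune genes were mixed. Of 23 interferon-stimulated genes 7 rose and 3 fell (median 0.22). OASL, an antiviral protein, read 11.4 and 12.6 FPKM and then 27.0 and 30.4 (1.19, SE 0.15, adjusted p = 0.000858), HERC5, the ISG15 ligase, 7.96 and 8.36 and then 14.4 and 15.3, and ISG15 918 and 1069 and then 1493 and 1642, while IFI44 fell from 11.9 and 11.0 to 3.81 and 5.42. Without the first PBS library 4 rose, without the second drug library 3 rose, and without the first drug library 1 fell. Among 12 interferon, sensor and IRF genes 3 rose and 1 fell: the lambda interferon gene IFNL1 (3.07 and 3.49 to 7.78 and 5.95), TMEM173, which encodes STING (18.9 and 24.3 to 37.3 and 41.7), and TBK1 (13.5 and 13.6 to 21.4 and 23.3) rose, and IRF2 fell (6.6 and 5.15 to 3.16 and 4.19). Only 1 of the 3 rose without the second drug library. TAP1, the peptide transporter of antigen presentation, rose from 33.7 and 35.3 to 76.1 and 82.4 (1.17, SE 0.10), 1 of 2 rises among 8 MHC class I genes, none of which fell, and 1 rose without the first PBS library or either drug library. Of 13 NF-kB genes 3 rose and 2 fell. ICAM1, an adhesion molecule, read 1.07 and 1.62 and then 8.59 and 10.5 (2.17, SE 0.22), SOD2, the mitochondrial superoxide dismutase, 43.8 and 44.8 and then 90.5 and 94.8, and NFKBIA, the NF-kB inhibitor, 27.2 and 34.0 and then 18.4 and 21.8. Neither fall passed without the second PBS or the first drug library. Of 11 chemokines and cytokines 3 rose and 2 fell, with IL18 at 64.2 and 56.5 and then 15.8 and 16.2 (-1.85, SE 0.10, adjusted p = 3.58e-05) and CSF1, the macrophage colony-stimulating factor, at 1.42 and 2.28 and then 8.08 and 12.2. With any 1 library left out 1 of this list fell.

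Of 14 heat shock members 6 rose and 4 fell. The small heat shock genes HSPB1 (473 and 513 FPKM to 933 and 1035, a change of 0.99, SE 0.10) and HSPB8 (3.82 and 3.21 to 15 and 13.1) and the co-chaperone BAG3 (36.2 and 39.6 to 62.8 and 70.6) rose, while HSP90AA1 (543 and 586 to 331 and 327) and DNAJB1 (142 and 151 to 75.9 and 84.7) fell. Of 20 genes of the integrated stress response and the unfolded protein response 1 rose and 5 fell. CEBPB, a transcription factor, rose from 82.8 and 85.9 to 138 and 154, and ATF4, the main effector of the integrated stress response, fell from 227 and 272 to 150 and 172 (-0.63, SE 0.12), as did SLC7A11, the cystine transporter (3.96 and 5.01 to 1.30 and 1.85). Of these 20, 1 fell without the first drug library and 3 without the second PBS library. Of 13 NRF2 and iron genes 3 rose and 2 fell, with HMOX1, heme oxygenase, at 13.0 and 16.2 and then 29.5 and 29.7 and FTH1, ferritin heavy chain, at 3141 and 3042 and then 1972 and 2094 (-0.60, SE 0.07). The change of FTH1 was 0.0 under quantile normalization, and 1 of the list fell without the first drug library.

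Messenger RNAs for ribosomal proteins fell nearly as a whole. Of 67 cytosolic ribosomal protein genes 61 fell and 1 rose, with a median of -0.75, and 56 to 59 fell with any library left out. RPL3 read 1822 and 2049 FPKM and then 630 and 670 (-1.57, SE 0.09, adjusted p = 5.56e-05), RPL10A 1091 and 1216 and then 422 and 452, and RPL21 1356 and 1349 and then 533 and 525. The groups overlapped in none of these genes, as in no member called. These genes are highly expressed and have many processed pseudogene copies among which reads could be divided, and their values depend on scaling: under quantile normalization 37 fell and 6 rose (median -0.36), and under upper-quartile scaling 63 fell and 1 rose (median -0.80). Of 22 ribosome biogenesis and RNA polymerase I genes 4 fell and 1 rose: NPM1, nucleophosmin, read 661 and 736 and then 411 and 424 (-0.74, SE 0.08), and POLR1E, a polymerase I subunit, 16.8 and 17.4 and then 31.2 and 34.4. Without the second PBS or either drug library 2 of them fell. Of 8 mitochondrially encoded mRNAs 1 rose and none fell (median 0.30), and that call, MT-ND1, did not hold with a library left out. The first library read higher than the second in 8 of the 8 with PBS, with a median log2 ratio of 0.29 both with PBS and with the drug, and the mitochondrial share of FPKM was 46.2 and 35.4% with PBS and 45.5 and 39.4% with the drug. Under quantile normalization 4 rose and under upper-quartile scaling 0. Of 16 glycolysis genes 5 fell and 1 rose, with ENO1, enolase, at 1523 and 1877 and then 982 and 1018 (-0.76, SE 0.10). That list had 3 falls and 3 rises under quantile normalization, and 3 falls without the second PBS or the first drug library. Among 8 housekeeping genes none rose and 2 fell, GAPDH (2861 and 3458 to 1990 and 2118) and YWHAZ (525 and 519 to 426 and 425), while 3 rose and none fell under quantile normalization and 1 rose and 3 fell under upper-quartile scaling. With any 1 library left out 1 of these 8 fell.

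Lineage and signalling lists held single large changes. Of 13 Wnt targets and regulators 6 fell and 1 rose, with CD44, an adhesion receptor, at 390 and 388 FPKM and then 143 and 160 (-1.36, SE 0.09), TCF7L2, the transcription factor TCF4, at 74.9 and 67.6 and then 28.6 and 33.9, and DKK1, a secreted Wnt inhibitor, at 484 and 398 and then 220 and 239. Of 11 ID and TGF-beta or BMP genes 3 rose and 2 fell. ID3, an inhibitor of helix-loop-helix factors, fell from 118 and 139 to 58.3 and 69.9. Without the first PBS or the second drug library 1 of the list rose, and without the second PBS or either drug library 1 fell. The intestinal keratin KRT20 rose from 0.5 and 0.796 to 5.72 and 5.77 (2.04, SE 0.15), and the tight junction genes CLDN3 (22.0 and 24.0 to 11.5 and 11.0) and CLDN4 (281 and 297 to 126 and 155) fell. Together 3 of 10 epithelial and intestinal genes rose and 4 fell. KRT20, like the neural genes RBFOX3 and GFAP given further on, was under 1 FPKM in both PBS libraries. These genes became members only through the drug libraries, and their direction thus follows in part from how they qualified. ACTA2, smooth muscle actin, rose from 5.0 and 4.98 to 19.3 and 19.9 (1.78, SE 0.11), the only call among 8 mesenchymal and contractile genes. Of 4 hepatocyte, neural and blood members 2 rose, the neural genes RBFOX3 (0.493 and 0.522 to 1.57 and 1.94) and GFAP (0.628 and 0.647 to 1.83 and 1.69), and 1 rose with any 1 library left out. The replication-dependent histone list had 1 rise, HIST3H2A (21.4 and 23.6 to 49.1 and 47.1), and 1 fall among 13 members (3 rises without the first PBS library), and among 8 replication-independent variants H2AFJ alone passed (48.3 and 40.2 to 136 and 125, a change of 1.54, SE 0.12), with 3 rises without the second PBS library.

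Of 14 long noncoding RNAs 7 rose and 5 fell. H19, an imprinted transcript, had the largest rise with steady libraries among all members, from 3.58 and 5.43 FPKM to 152 and 134 (4.73, SE 0.17, adjusted p = 1.67e-05). LINC-PINT, a p53-induced transcript, went from 11.3 and 12.6 to 22.5 and 25.3, while the snoRNA host genes GAS5 (590 and 561 to 341 and 357), ZFAS1 (391 and 401 to 215 and 229) and SNHG5 (363 and 422 to 163 and 218) fell. Without either drug library 4 of the 14 rose. The intronic locus AL021707.8 had a larger fitted rise, but it was listed at 0 in both PBS libraries and read 234 and 91.4 with the drug, and its call did not hold with a library left out. The locus named AC245100.7 and RP11-495P10.2, given here after its values were seen, read 0.245 and 0.683 and then 18.2 and 17.4 (3.7, SE 0.47, adjusted p = 0.000914), against -0.89 for GFP cells and -0.6 for SMC5 cells on the log2 scale. Neither difference passed.

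Long genes fell more often than short ones. Of 15 members of a list of very long genes 11 fell and none rose (median -0.81): FTO, an RNA demethylase, read 31.3 and 31.2 FPKM and then 11.6 and 14.4 (-1.21, SE 0.12), PTPRG, a receptor phosphatase, 5.83 and 5.98 and then 2.37 and 2.48, and PARD3, a polarity protein, 12.8 and 13.9 and then 6.62 and 7.44. The same showed in all 10322 protein-coding members with a gene length and a GC value, divided into 5 classes of equal size. In the shortest class, with a median length of 6.23 kb, 24.4% rose and 16.5% fell, and in the longest, with a median of 166 kb, 8.04% rose and 27.0% fell (median change 0.09 and -0.20). Among 776 genes of at least 200 kb, 5.93% rose and 34.5% fell (median -0.34). Length goes with GC content (Spearman -0.368 over these genes, which are not independent replicates), so the classes were also compared within 3 classes of GC content. The longest class had medians of -0.25, -0.20 and -0.10 from the lowest to the highest GC, and the shortest 0.01, 0.09 and 0.12. The longest class fell within 3 classes of expression level as well, with a median of -0.20, -0.21 and -0.20 from the lowest to the highest level. The shortest class had 0.26, 0.17 and -0.06. At the highest level 19.4% of the shortest class rose and 25.6% fell. The longest class had a median of -0.21 with doxorubicin both in GFP and in SMC5 cells. In NSE4 cells it was -0.17 after adjustment for GC content, and between -0.24 and -0.18 with 1 NSE4 library left out.

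**Figure D4:**
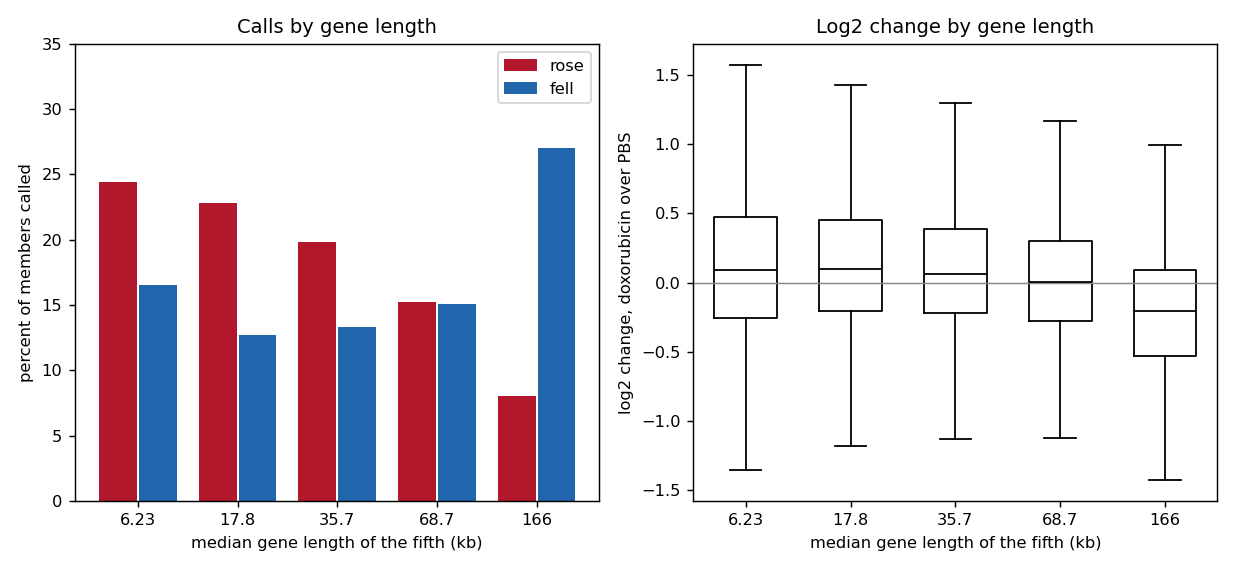
Percent of protein-coding members that rose (red) or fell (blue) in 5 classes of gene length (left), and their log2 changes as boxes with the median, quartiles and whiskers to 1.5 interquartile ranges and outliers not drawn (right), with the median length of each class in kb on the x axis. The percent that fell is highest (27.0) and the median change lowest (-0.20) in the class with a median of 166 kb.

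The response of NSE4 cells lay close to that of GFP cells and of SMC5 cells. These 3 responses share no library. Across the 14387 members, which are not independent replicates and share the scaling of each library, the log2 changes correlated with those of GFP cells at a Pearson r of 0.813 (Spearman 0.848) and of SMC5 cells at 0.799 (0.844). Of the 4700 members called, 4625 (98.4%) had the same sign in GFP cells and 4619 (98.3%) in SMC5 cells. Called members were chosen for their change in NSE4 cells, so these shares do not stand for all members. The test of the difference itself passed for 5 of 15833 loci against GFP cells (0.0316%; 454 had an unadjusted p under 0.05) and for 4 against SMC5 cells (0.0253%; 387 unadjusted), and for 1 and 2 of the members. The median SE of a member's difference was 0.225 against GFP cells and 0.252 against SMC5 cells, with 2 libraries a group and 1 sample for SMC5 cells with doxorubicin, whose spread was taken from the other groups. Differences several times that size, such as that of RARS, also did not pass. No member of the 45 gene lists differed by either test.

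The called differences were in noncoding and unnamed loci. AC243773.3, given first, became a member only through the PBS libraries of NSE4 cells, where it was high. The direction of its change thus follows in part from how it qualified. AC243773.3 read 8.31 and 5.74 FPKM in the PBS libraries of NSE4 cells and was listed at 0 in the 10 other columns, a difference of -2.99 from GFP cells (SE 0.31, adjusted p = 0.0317) on the log2(FPKM + 1) scale, a call that 7 of the 8 omissions ended. SVIL-AS1, an antisense transcript (1 of 3 loci with that name), read 12.2 and 11.9 and then 8.97 and 11.1 in NSE4 cells, against 10.7 and 13.2 and then 117 and 134 in SMC5 cells (-3.55, SE 0.23, adjusted p = 0.00102), and the locus named AL360181.1 and BANF1P2, a pseudogene, read 1.05 and 1.1 and then 1.56 and 1.24 against 0.69 and 1.22 and then 65.9 and 70.1 (-4.95, SE 0.28). In both loci the drug-treated SMC5 columns were far above all NSE4 and GFP libraries, which with the drug read 7.08 and 8.73 in GFP cells for SVIL-AS1. The other called loci were listed at 0 in all 4 NSE4 libraries and are no members.

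**Figure D5:**
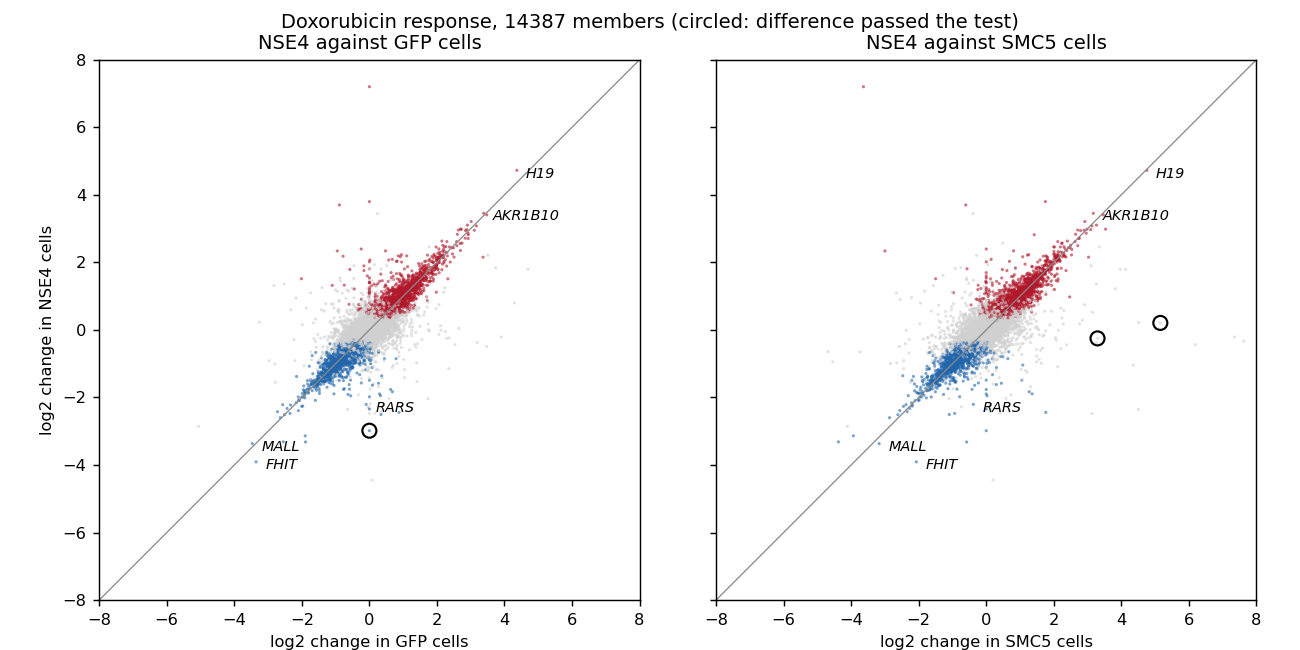
Log2 change with doxorubicin in NSE4 cells (y axis) against GFP cells (left) and SMC5 cells (right) for the 14387 members, in red where they rose and blue where they fell in NSE4 cells, with the line of equal change. The points follow the line (Pearson r 0.813 and 0.799), RARS lies off it in both panels, and the circled loci (1 on the left, 2 on the right) passed the test of the difference.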

How the data were processed

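Total RNA of 12 HCT116 libraries was made into libraries with an mRNA-Seq kit. The deposited values are FPKM per locus, which the authors made with TopHat and Cufflinks per the submitters' processing notes; versions and genome build are not given in the sources used here. The deposited FPKM were analysed as log2(FPKM + 1) with limma 3.58.1 in R 4.3.3 (mean-variance trend, 6 groups in 1 fit, 5 residual degrees of freedom), over the 15833 loci with at least 1 FPKM in at least 2 of 11 samples, with Benjamini-Hochberg adjustment over all of them and a threshold of 0.05. Differences of response were tested as interaction terms. Depth was estimated from the FPKM that 1 fragment is worth in loci with a single transcript. A listed gene was read at its highest locus and counted only where no other protein-coding gene shared it.

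Genes named are NSMCE4A, the 12 largest rises and falls among called protein-coding genes with non-overlapping groups and a group mean of at least 5 FPKM, at loci named by 1 symbol that no other locus has (SORCS2, on 3 loci, and SCD, which shares its locus with AL139819.1, are outside), up to 4 genes of smallest p per list with CDKN1A and MDM2, and called differences; other names were chosen after their values were seen. The members and the 45 lists were chosen with earlier results of these data known. No label ties the 2 libraries of any group to separate cultures, and the p-values then reflect a spread that may be technical. Alternatives were other scalings, pseudocounts, filters and sample sets, a replicate block, an adjustment for GC content, and leaving out each library. Results for some genes are not reported here.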

Additional observations from a re-analysis of the deposited data

Results flagged for a closer look

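The 9 differences of response that passed the interaction test (limma, Benjamini-Hochberg adjusted) are given as fitted differences on the log2(FPKM + 1) scale. Against GFP cells these were -2.99 for AC243773.3, -2.99 for AC068580.1, -6.33 for AC032044.2, -5.95 for SNORD91A, a small nucleolar RNA, and -3.27 for AC073107.2. Against SMC5 cells they were -3.55 for SVIL-AS1, -4.95 for the locus of AL360181.1 and BANF1P2, -6.13 for AC032044.2 and -7.75 for SNORD91A. AC032044.2 was listed at 0 in all PBS libraries and in drug-treated NSE4 cells, and read 89.1 and 70.6 FPKM in drug-treated GFP cells and 68.3 and 69.6 in drug-treated SMC5 cells. SNORD91A was listed at 0 in the same libraries and read 69.2 and 53.3 FPKM in drug-treated GFP cells and 217 and 211 in drug-treated SMC5 cells. The call of AC068580.1 was lost with 7 of the 8 libraries left out in turn. An exact 0 in such a table can be a failed estimate, and its part in these differences was not tested.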

How the results depend on the processing

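The 4780 loci called for doxorubicin in NSE4 cells became 2437 when only the groups compared were fitted, and 2920 (without the second drug library) to 3569 (without the second PBS library) with 1 library left out. The 5 differences from GFP cells became 2 with log2(FPKM + 0.1), 2 with a minimum of 5 FPKM, 71 with no filter, 8 with only the groups compared, and 4 (without the second drug library of GFP cells) to 12 (without the second PBS library of NSE4 cells) with 1 library left out. The 4 differences from SMC5 cells became 466 with no filter, 12 with only the groups compared, 10 with all 12 columns as separate samples, and 5 (without the first drug library of NSE4 cells) to 15 (without the first PBS library of NSE4 cells) with 1 library left out. With the replicate number as a block the counts were 5809, 3 and 4. Over tested loci with a mean of at least 5 FPKM, the deviations of same-numbered libraries correlated at -0.092 to 0.126. The main fit did not treat the numbers as pairs. With that block 7 of the 8 mitochondrially encoded mRNAs rose, against 1 without it. FTH1 was 0.0 under quantile normalization. Neither BIRC2 nor SYP was called: with a library left out BIRC2 ranged from -0.28 to 0.0 and SYP from -0.54 to 0.11. Of 198 named genes 184 kept direction and call under quantile normalization and 158 with only the groups compared. In that last fit 1 of 26 homologous recombination and Fanconi genes rose, against 9 in the main fit. Of 23 G1/S and replication genes 3 rose, against 10, and of 8 caspase and apoptosome genes 1, against 5. In the SMC5/6 list 0 rose and 0 fell. In the cholesterol list 16 of 21 fell, against 17. The causes were not tested. With 2 libraries a group, precision was limited.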
